A study of Mus musculus with 32 samples.

Results

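The 10 mRNAs described here encode elongation factors and other proteins of the translation machinery and its surroundings, and they are classed as TOP mRNAs (mRNAs with a terminal oligopyrimidine start) other than those of ribosomal proteins. They were chosen by gene symbol: Eef1a1, Eef1b2, Eef1d, Eef1g, Eef2, Tpt1, Pabpc1, Npm1, Naca and Btf3, 10 of the 20234 genes in the deposited count table. All 10 had a row of their own and passed the filter on low counts in every fit. The cells were mouse embryonic fibroblasts (MEFs), cultured connective tissue cells. Untreated MEFs (0 h of thapsigargin, the control) were set beside MEFs given thapsigargin for 1 h, MEFs given it for 16 h with a PERK inhibitor added for the last 4 h, and MEFs given it for 16 h alone. Each condition had 4 samples, and the RNA of each sample was sequenced as cytosolic RNA and as polysome RNA, the gradient fractions in which an mRNA carried more than 4 ribosomes, which makes 32 libraries. The labels name neither the inhibitor nor any dose or solvent control, and give no strain, genotype or origin for the MEFs.

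TOP mRNAs start at the cap with a cytosine followed by an unbroken run of pyrimidines. The kinase complex mTORC1 keeps them on ribosomes, and when it is inactive the protein LARP1 binds cap and tract and holds these mRNAs off polysomes, so that the whole class is known to move on and off ribosomes together. Thapsigargin empties the calcium store of the endoplasmic reticulum (ER) by inhibiting its pump, and so stresses the ER. The kinase PERK then phosphorylates the initiation factor eIF2, which lowers initiation on most mRNAs and raises it on a few, such as that of the transcription factor ATF4.

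Pyrimidine runs near the annotated start are shown for the 6 genes found in the RefSeq promoter table (GRCm38.p6), which are Eef1a1, Eef1b2, Eef2, Tpt1, Naca and Btf3, since the class is named for such runs at the cap. The other 4, Eef1d, Eef1g, Pabpc1 and Npm1, are named only. Each line gives the longest run of C and T that begins with C within the first 100 bases of the principal GENCODE M21 transcript, in capitals, with its flanks in lower case, 5′ to 3′ on the strand of the gene (GRCm38).
Eef1a1, chr9:78481657-78481679, minus strand: tggacgttCTTTTTCgcaacggg
Eef1b2, chr1:63176872-63176893, plus strand: aactccggCTCCTCagagggcg
Eef2, chr10:81176638-81176660, plus strand: tcagcggtCTCTTCCgccgcagc
Tpt1, chr14:75845119-75845139, plus strand: gcacaccgCCCCCgttgcccc
Naca, chr10:128035597-128035621, plus strand: gcgcccggCTTCCTTCTgcaacagg
Btf3, chr13:98316929-98316953, minus strand: tgtgtgcgCCTTCTCTCagctggtc

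The runs were 5 bases long in Tpt1, 6 in Eef1b2, 7 in Eef1a1 and Eef2, and 9 in Naca and Btf3. Runs of this kind were common: 75.5% of 21840 protein-coding transcripts held one of at least 5 bases in the same window, 38.2% one of at least 7 and 16.9% one of at least 9. Annotated starts are not measured cap sites, and the stretches in capitals are not shown to be the tracts of the class. The runs began 16 (Eef2) to 56 bases (Eef1b2) into the annotated transcript. None of the 7 RefSeq windows of these 6 genes (0 of 7) began at its annotated start with C followed by at least 4 more C or T, and 2.22% of 20143 windows of protein-coding genes did. Only the strand of the gene was read, and a run is a description of these letters.

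The 4 subunits of elongation factor 1 come from Eef1a1 (chr9:78478449-78481724), whose protein brings aminoacyl-tRNA to the ribosome, and from Eef1b2 (chr1:63176825-63180486), Eef1d (chr15:75894205-75909355) and Eef1g (chr19:8967041-8978479), which form the complex that exchanges its guanine nucleotide. Eef2 (chr10:81176631-81182498) encodes the translocase that moves the ribosome along the mRNA. Tpt1 (chr14:75845093-75848415) encodes the abundant growth-related protein TCTP, and Pabpc1 (chr15:36595661-36608973) the cytoplasmic poly(A)-binding protein, which also binds an A-rich stretch in the leader of its own mRNA and lowers its translation. Npm1 (chr11:33152287-33163206) encodes nucleophosmin, a nucleolar protein of ribosome assembly. Naca (chr10:128035575-128048633) and Btf3 (chr13:98309896-98316967) encode the subunits of the nascent polypeptide-associated complex, which meets new chains at the ribosomal exit. Coordinates are those of GENCODE M21 on GRCm38, and which exons entered the deposited counts is not stated. Several of these genes, Eef1a1, Tpt1, Npm1, Naca and Btf3 among them, have processed pseudogenes with near-identical sequence. Their values are uncertain to the extent that reads of such copies were counted, which the labels do not tell.

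The libraries held 19.32 to 41.78 M counts each, the widest range being that of the 1 h libraries. Of 10 fibroblast markers, 7 were at 10 CPM or more in control cytosolic RNA, while Dcn and Lum were under 1 CPM and Postn averaged 7.93 ± 0.754 CPM (SD, n = 4). Their summed level ran from 7070 to 10000 CPM in control cells, 16800 to 20300 CPM at 1 h, 3710 to 4280 CPM with the inhibitor and 4020 to 4680 CPM at 16 h. Of 15 markers of epithelium, leukocytes, endothelium, neurons, muscle, erythroid cells and liver, 0 reached 10 CPM in control cells and 12 were under 1 CPM, with Ptprc, Tyrobp, Myog and the globin genes at 0. A mean of 10 CPM was reached by 1 of these 15 markers at 1 h, 0 with the inhibitor and 1 at 16 h. Their summed level ran from 10.7 to 16.0 CPM in control cells, 23.4 to 30.0 CPM at 1 h, 8.78 to 11.3 CPM with the inhibitor and 14.5 to 24.4 CPM at 16 h, and the part of either list in the values below was not tested. The treatment was visible in Ddit3, which encodes the stress transcription factor CHOP and rose 6.72-fold in cytosolic RNA at 1 h, and in Herpud1, of ER-associated degradation, which rose 9.90-fold at 16 h and was 11.8-fold lower with the inhibitor than at 16 h without it. Some libraries differed from their replicates by a trend on the GC content of transcripts. Its slope ran from -0.33 log2 units per 10 percentage points of GC in control cytosolic replicate 1 to 0.24 in control cytosolic replicate 2.

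In control cells the cytosolic levels per kilobase of transcript spanned a wide range. Eef1a1 stood highest at 3522 ± 345 CPM per kb (SD, n = 4), followed by Tpt1 at 1150 ± 72.0 and Pabpc1 at 1094 ± 64.3, whose ranges overlapped. Npm1 came next at 709 ± 86.8 CPM per kb, and then Eef1g, Naca and Eef2 at 430 ± 13.2, 416 ± 20.3 and 406 (254 to 537 for Eef2), which overlapped one another. Btf3, at 322 ± 27.2 CPM per kb, overlapped Eef2. Eef1b2 followed at 253 ± 12.6 and Eef1d was lowest at 57.9 ± 2.28 CPM per kb. These values divide by the length of 1 principal GENCODE M21 transcript per gene, and which transcripts the reads came from was not tested. For Eef1b2 that transcript is 1939 nt long with 678 nt of coding sequence, and its place below Btf3 rests on that length. Undivided, Eef1b2 had a mean of 490.3 CPM, above Naca (367.8 CPM) and Btf3 (350.9 CPM). Eef1d was also lowest undivided, at 133.9 CPM, against 801.9 CPM for Eef1g.

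The ratio of polysome to cytosolic RNA, called translational efficiency here, was spread as widely in control cells, and its order was not that of the levels. Eef1d, the least abundant, had the highest log2 ratio at 2.11 ± 0.0851 (SD, n = 4), above 99.5% of the 12561 genes tested. Eef1g (1.51 ± 0.0898) and Eef1b2 (1.38 ± 0.148) followed with overlapping ranges, then Btf3 (1.09 ± 0.172) and Eef1a1 (1.02 ± 0.188). Naca, Npm1, Eef2 and Tpt1 had 0.62, 0.49, 0.33 and 0.14, each overlapping the next, against a median of 0.03 over all genes. Pabpc1 stood apart at -3.10 ± 0.0754, and 0.5% of genes had a lower ratio. Its polysome level in control cells was 358 ± 11.9 CPM and its cytosolic level 3083 ± 181 CPM.

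**Figure D1:**
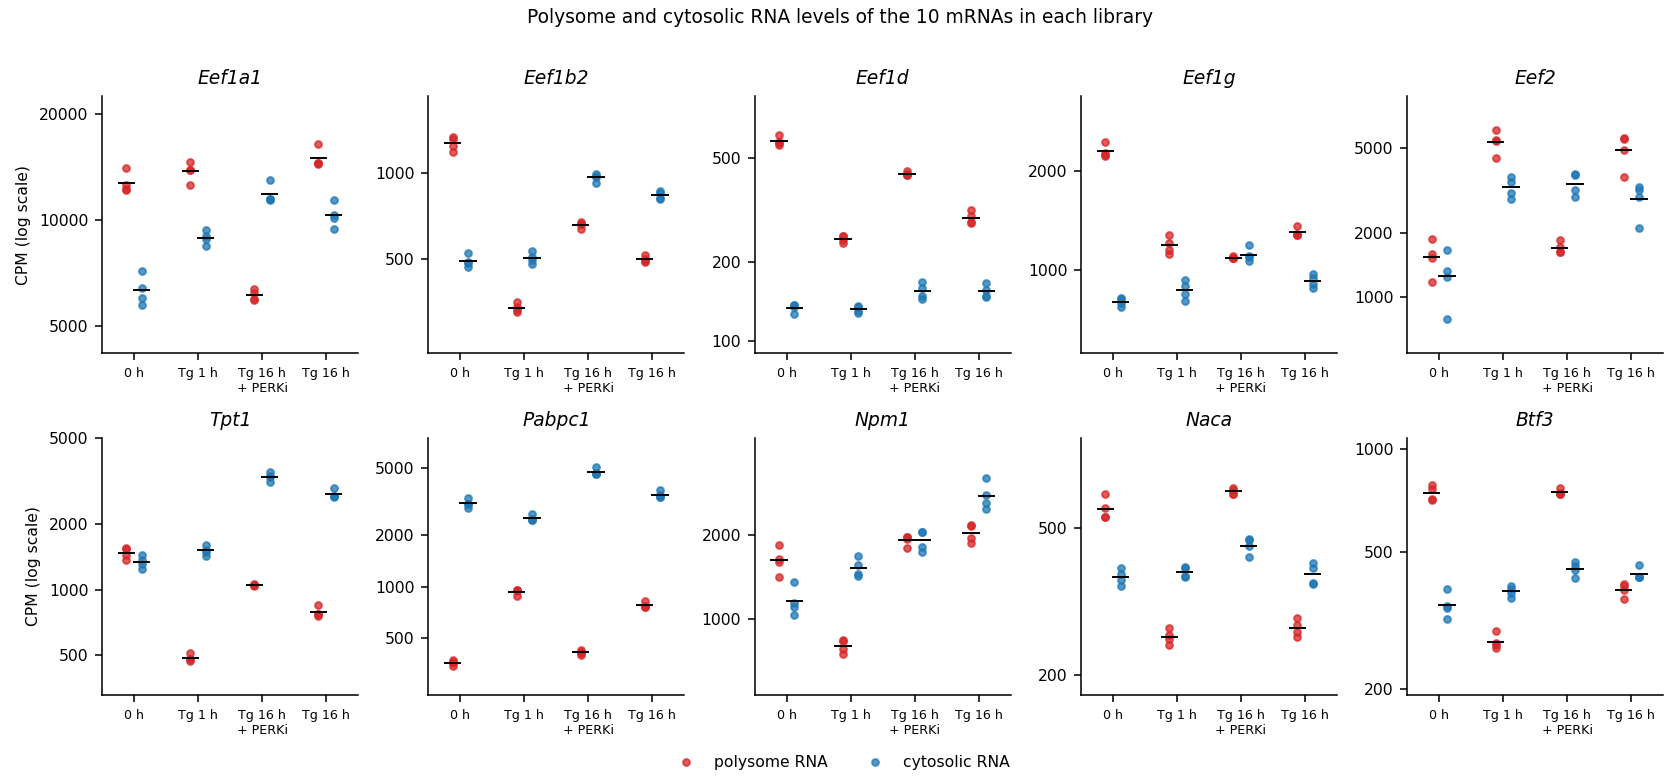
Level of each of the 10 mRNAs in CPM (log axis) in every library, polysome RNA in red and cytosolic RNA in blue, for control (0 h), thapsigargin 1 h, 16 h with PERK inhibitor (PERKi) and 16 h; points are libraries and bars their means (n = 4). Polysome RNA lay above cytosolic RNA for Eef1b2, Naca and Btf3 in control cells and below it at 1 h, whereas polysome Pabpc1 was higher at 1 h (885 to 953 CPM) than in control cells (344 to 373 CPM).

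The comparison of 1 h with control asks how these mRNAs respond to acute ER stress. Translational efficiency fell for 8 of the 10 after 1 h of thapsigargin, most for Eef1b2 and Tpt1, and rose for Pabpc1, while Eef2 did not pass the test. The median log2 change of the 10 was -1.21, against -0.01 over all 12561 genes, and 67.8% of all genes were called in either direction at an adjusted p under 0.05. On polysomes 7 of the 10 fell and 3 rose (median -1.03, 79.5% of all genes called), while in cytosolic RNA 4 rose, 1 fell and 5 did not pass (median 0.11, 56.2% of all genes called). The count called in cytosolic RNA, 5 of 10, was 9 with a trend on coding length removed from each library and 8 with a trend on GC content removed. Eef1b2, Eef1g, Naca and Btf3 passed as rises under both, and Tpt1 did not pass with the GC trend removed (adjusted p = 0.0657, edgeR). Every level is relative to the other mRNAs of its library, and in bulk RNA fewer cells that translate an mRNA and less of it on polysomes in each cell cannot be told apart.

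Among the elongation factor 1 subunits, Eef1b2, a nucleotide exchange subunit, had log2 ratios of -0.52, -0.72, -0.54 and -0.55 at 1 h, against 1.18, 1.50, 1.48 and 1.36 in control samples. Every 1 h sample lay below every control sample, on the other side of 0. Its translational efficiency fell 3.90-fold (log2 change -1.96 ± 0.0738 SE, edgeR quasi-likelihood test, Benjamini-Hochberg adjusted p = 1.07e-13), with 335 ± 12.1 CPM on polysomes at 1 h against 1276 ± 71.0 CPM in control cells. Cytosolic Eef1b2 ran from 478 to 532 CPM at 1 h and from 467 to 524 CPM in control cells (adjusted p = 0.684, edgeR). Eef1d and Eef1g, the other subunits of the exchange complex, fell 2.33-fold and 2.09-fold in efficiency, again with no overlap between groups. Eef1a1, which carries the aminoacyl-tRNA, fell least of the 8, by 1.31-fold (log2 change -0.39 ± 0.0882 SE, edgeR adjusted p = 0.000679). Its log2 ratio was 0.72, 0.57, 0.51 and 0.70 at 1 h, against 0.78, 1.08, 1.22 and 0.98 in control samples, so the groups came close without touching. Cytosolic Eef1a1 rose 1.40-fold, to 8906 ± 366 CPM at 1 h against 6318 ± 619 CPM in control cells. Its polysome level rose 1.12-fold, with 12611 to 14588 CPM at 1 h and 12133 to 14042 CPM in control cells, which overlap. That direction was not kept with the GC trend removed (log2 change -0.03 ± 0.0327 SE, edgeR adjusted p = 0.462), and the rise did not pass with RLE factors (adjusted p = 0.0899) or DESeq2 (adjusted p = 0.113).

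Eef2, the translocase, did not follow the exchange factors. Its mRNA rose 2.59-fold in cytosolic RNA (3675, 2878, 3485 and 3074 CPM at 1 h, against 785, 1658, 1324 and 1246 CPM in control cells), and each 1 h library was above each control library. On polysomes it rose 3.62-fold, with 4526 to 6130 CPM at 1 h against 1176 to 1873 CPM in control cells. The log2 ratio was 0.57, 0.91, 0.81 and 0.56 at 1 h and 0.96, -0.05, -0.17 and 0.59 in control samples, which overlap, and the change of 0.38 ± 0.259 SE did not pass the test (edgeR adjusted p = 0.206). This spread moved with the GC trend of the libraries: over all 32, the deviation of Eef2 from its group mean had a Pearson r of 0.98 with the slope on GC content. This r is a description, since both come from the same libraries. With that trend removed, the change in efficiency was 0.71 ± 0.143 SE (edgeR adjusted p = 0.000538), and without control replicate 1 it was 0.59 ± 0.246 SE (adjusted p = 0.0508, edgeR). The principal Eef2 transcript is 57.0% GC, the highest of the 10, and that of Npm1 is 42.4%, the lowest.

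**Figure D2:**
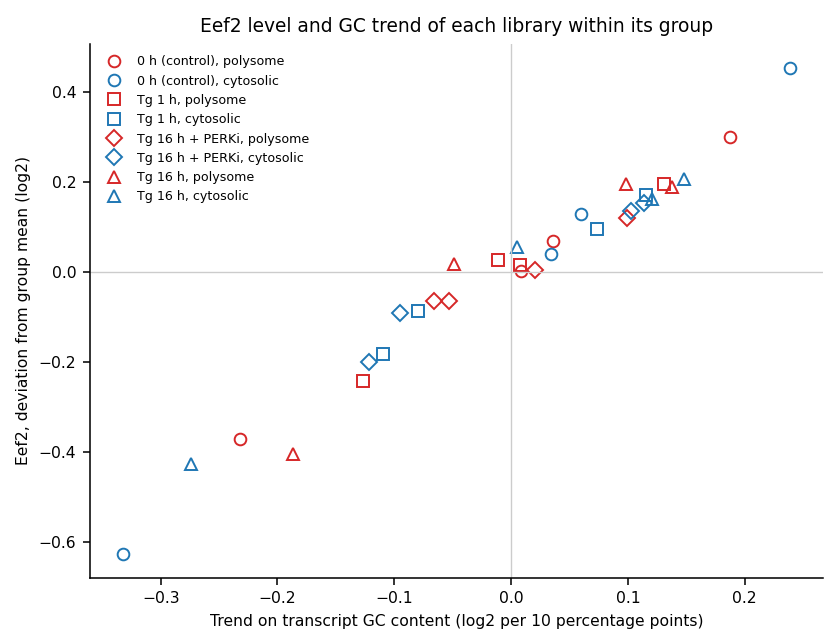
Deviation of Eef2 from the mean of its group (log2) against the slope of each library on transcript GC content (log2 per 10 percentage points, over 8931 genes), for the 32 libraries; symbols give the condition, red is polysome and blue cytosolic RNA. The points lie close to a line (r = 0.98), with control cytosolic replicate 1 at the lower left (-0.62).

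Pabpc1 moved in the opposite direction. Its log2 ratio was -1.37, -1.50, -1.49 and -1.39 at 1 h, against -3.21, -3.07, -3.03 and -3.11 in control samples. The groups were more than 1 log2 unit apart. Efficiency rose 3.18-fold (log2 change 1.67 ± 0.0644 SE, edgeR adjusted p = 1.46e-13), made up of a 2.70-fold rise on polysomes and a 1.23-fold fall in cytosolic RNA. Even so, 1.9% of genes had a lower ratio than Pabpc1 at 1 h.

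Tpt1, which encodes TCTP, had log2 ratios of -1.58, -1.70, -1.63 and -1.66 at 1 h, against -0.08, 0.31, 0.24 and 0.08 in control samples. Its efficiency fell 3.43-fold (log2 change -1.78 ± 0.0780 SE, edgeR adjusted p = 7.19e-13), and 0.9% of genes had a lower ratio at 1 h. Npm1, of ribosome assembly, fell 2.68-fold in efficiency, with 800 ± 45.9 CPM on polysomes at 1 h against 1624 ± 172 CPM in control cells, while its cytosolic RNA rose 1.31-fold. The subunits of the nascent polypeptide-associated complex fell together, Btf3 by 2.98-fold and Naca by 2.30-fold. Polysome Btf3 was 268, 271, 263 and 294 CPM at 1 h, against 717, 764, 786 and 713 CPM in control cells. Polysome Naca was 250, 256, 240 and 268 CPM at 1 h, against 536, 565, 619 and 536 CPM in control cells. Neither overlapped its control range, and the cytosolic RNA of both was not called (adjusted p = 0.054 for Btf3 and 0.58 for Naca, edgeR). That of Btf3 passed as a rise without control replicate 1 or 16 h replicate 1 (adjusted p = 0.00522 and 0.044), and that of Eef1g without 1 h replicate 4 (adjusted p = 0.0127, edgeR).

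**Figure D3:**
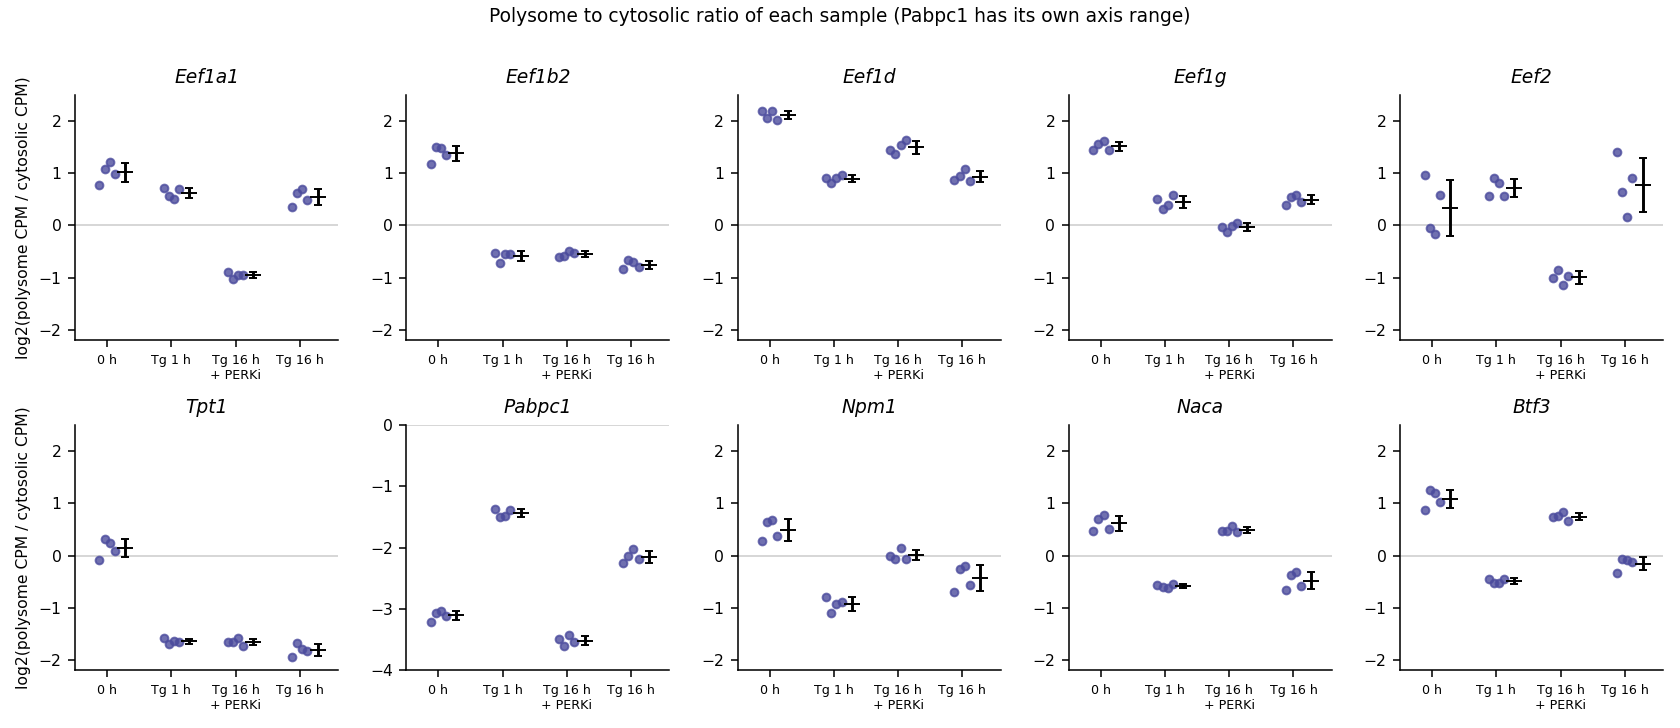
log2 ratio of polysome to cytosolic CPM of each sample for the 10 mRNAs, with mean and SD (n = 4), for control (0 h), thapsigargin 1 h, 16 h with PERK inhibitor (PERKi) and 16 h. At 1 h and 16 h 8 of the mRNAs lie below control, Pabpc1 lies above it, and Eef2 overlaps it; with the inhibitor Naca and Btf3 lie above their 16 h samples, and Eef1a1, Eef2 and Pabpc1 below theirs.

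After 16 h, the chronic phase of the treatment, the translational efficiency of 8 of the 10 was lower than in control cells, that of Pabpc1 was higher and Eef2 did not pass (median -1.06 against -0.04 over all genes, 64.2% of all genes called). In cytosolic RNA 6 rose against control and 0 fell, the 4 others not passing (77.3% of all genes called, median 0.38 for the 10). With the GC trend removed all 10 were called there, Naca as a fall and Eef1d, Eef1g and Pabpc1 as rises. On polysomes 6 were lower and 4 higher than in control cells (85.1% of all genes called). Cytosolic Naca passed as a fall without control replicate 2 or 16 h replicate 1 (adjusted p = 0.0461 and 0.0307, edgeR), and it also passed as a fall with library totals and in a fit of the compared conditions alone. Eef1g passed as a rise with DESeq2 (adjusted p = 0.0475).

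Npm1 had the largest estimate of a cytosolic rise of the 10 at 16 h, 2.19-fold (log2 change 1.13 ± 0.0857 SE). That of Eef2 was within its SE of this value (1.08 ± 0.195 SE). Cytosolic Npm1 was 3182, 2593, 2470 and 2778 CPM at 16 h against 1359, 1031, 1139 and 1100 CPM in control cells. No 16 h library overlapped the control range. Its efficiency was lower (log2 change -0.92 ± 0.113 SE, edgeR adjusted p = 7.96e-07), and its polysome level 1.19-fold higher, which became a fall with the GC trend removed (log2 change -0.23 ± 0.0266 SE, edgeR adjusted p = 9.32e-09). Eef2 was 2.12-fold higher in cytosolic RNA, Tpt1 1.89-fold, Eef1b2 1.57-fold, Eef1a1 1.50-fold and Btf3 1.13-fold. On polysomes Eef1a1 was 1.12-fold higher, and lower with the GC trend removed (log2 change -0.07, edgeR adjusted p = 0.0439). Tpt1 shows how the levels came apart, with a rise to 2760 ± 132 CPM in the cytosol at 16 h against 1344 ± 84.1 CPM in control cells, and 789 ± 42.5 CPM on polysomes at 16 h against 1477 ± 87.3 CPM in control cells. Its efficiency was 3.85-fold lower, and that of Eef1b2 4.38-fold lower, the lowest of the 10 in this comparison. Btf3 fell 2.37-fold, Eef1d 2.26-fold, Naca 2.14-fold, Eef1g 2.04-fold and Eef1a1 1.39-fold in efficiency. Pabpc1 was 1.94-fold higher in efficiency (log2 change 0.95 ± 0.0641 SE, edgeR adjusted p = 2.57e-10), and its cytosolic RNA did not pass the test (adjusted p = 0.364, edgeR). For Eef2 the change in efficiency was 0.44 ± 0.261 SE (edgeR adjusted p = 0.153). It passed with the GC trend removed (0.78, adjusted p = 0.000253, edgeR), without control replicate 1 (0.65, adjusted p = 0.0363) and without 16 h replicate 3 (0.64, adjusted p = 0.0391).

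Set directly against 1 h, the 16 h samples differed in the efficiency of 3 of the 10, where 28.1% of all genes were called. Pabpc1 was 1.64-fold lower at 16 h than at 1 h, with log2 ratios of -2.26, -2.14, -2.03 and -2.18 at 16 h against -1.37, -1.50, -1.49 and -1.39 at 1 h. Npm1 was 1.41-fold higher and Btf3 1.26-fold higher, the 16 h samples again lying clear of the 1 h samples. The other 7 did not pass, and the largest of their changes was that of Eef1b2 (log2 change -0.17 ± 0.0732 SE, edgeR adjusted p = 0.0955), which passed without control replicate 1 (adjusted p = 0.0465). Tpt1 had -0.16, Eef1a1 -0.09, Eef1d 0.04, Eef1g 0.04, Eef2 0.06 and Naca 0.10. The count called was 5 with library totals, which added Eef1b2 and Tpt1 as falls, and 5 with the GC trend removed, which added Eef1b2 as a fall and Naca as a rise; Eef1b2 also passed with no replicate block (adjusted p = 0.0348, edgeR). In cytosolic RNA Tpt1, Npm1, Eef1b2 and Pabpc1 rose between these times, by 1.69-fold, 1.67-fold, 1.55-fold and 1.27-fold, and Naca fell 1.09-fold (75.3% of all genes called). The fall of Naca did not pass without 16 h replicate 2 or 3 or 1 h replicate 2 (adjusted p = 0.0834, 0.0847 and 0.0501, edgeR), nor with RLE factors, with DESeq2 or with no filter (adjusted p = 0.0962, 0.0925 and 0.0736). Eef1d passed as a rise without control replicate 1, 16 h replicate 2 or inhibitor replicate 2 (adjusted p = 0.0409, 0.0403 and 0.0474, edgeR), with RLE factors, DESeq2 or library totals (0.021, 0.0167 and 0.0364) and with the GC trend removed (0.000207). On polysomes Npm1, Tpt1, Eef1b2, Btf3 and Eef1d rose, Npm1 most (2.33-fold), and Pabpc1 fell 1.31-fold (78.5% of all genes called). With the GC trend removed Eef1g passed as a rise there (adjusted p = 0.00283) and Naca as a fall (adjusted p = 0.0296, edgeR).

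**Figure D4:**
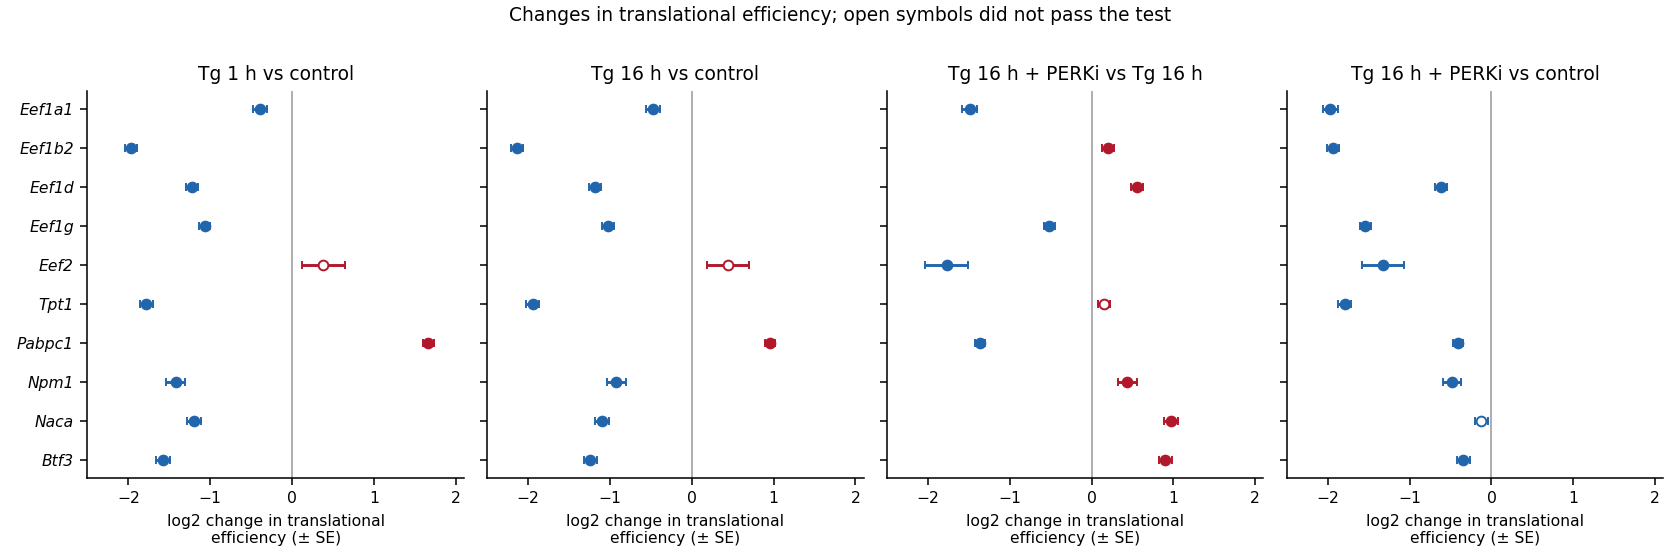
log2 change in translational efficiency (± SE) of the 10 mRNAs in 4 comparisons; red is higher and blue lower in the first-named condition, and open symbols did not pass the test. The first pair of panels has 8 mRNAs to the left of 0, and to the right Pabpc1 and, as an open symbol, Eef2. With the PERK inhibitor against 16 h, 5 called mRNAs lie to the right and 4 to the left.

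The inhibitor group against 16 h without inhibitor asks what differed when a PERK inhibitor was added late in the response. No group had the inhibitor without thapsigargin, so loss of PERK activity and other effects of the compound cannot be told apart. The 10 mRNAs split: the efficiency of Naca, Btf3, Eef1d, Npm1 and Eef1b2 rose with the inhibitor, that of Eef2, Eef1a1, Pabpc1 and Eef1g fell, and Tpt1 did not pass (log2 change 0.15 ± 0.0773 SE, edgeR adjusted p = 0.103). Without control replicate 1 or 16 h replicate 2 Tpt1 passed as a rise (adjusted p = 0.0409 and 0.0408, edgeR), as it did with library totals (0.30, adjusted p = 0.000484). The median change was 0.17, against -0.09 over all genes, and 60.1% of all genes were called.

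Naca and Btf3 rose most, by 1.96-fold and 1.87-fold. The log2 ratio of Naca was 0.47, 0.47, 0.57 and 0.45 with the inhibitor, against -0.66, -0.37, -0.31 and -0.58 at 16 h. That of Btf3 was 0.74, 0.76, 0.82 and 0.66 with the inhibitor, against -0.33, -0.07, -0.09 and -0.13 at 16 h. On polysomes Naca was 2.40-fold higher and Btf3 1.97-fold higher than at 16 h. Eef1d rose 1.47-fold, Npm1 1.36-fold and Eef1b2 1.15-fold in efficiency. These smaller rises did not hold when a trend on coding length was removed from each library. Eef1d then had a log2 change of 0.15 (adjusted p = 0.103, edgeR), Npm1 of 0.04 (adjusted p = 0.766) and Eef1b2 of -0.20 (adjusted p = 0.0289), while Naca kept 0.59 and Btf3 0.54. The rise of Eef1b2 also missed the threshold without 16 h replicate 1 or 4 or inhibitor replicate 3 (adjusted p = 0.0583, 0.0576 and 0.075, edgeR).

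The fall of Eef2 had the largest estimate of the 10, 3.41-fold (log2 change -1.77 ± 0.261 SE, edgeR adjusted p = 3.55e-05). That of Eef1a1 was close to it (-1.49 ± 0.0886 SE), and their order was reversed with the coding-length trend removed, as given below. Polysome Eef2 was 1855, 1632, 1712 and 1632 CPM with the inhibitor, against 5582, 4938, 3681 and 5553 CPM at 16 h, while its cytosolic level was 3421 ± 406 CPM with the inhibitor and 2890 ± 531 CPM at 16 h (adjusted p = 0.177, edgeR). Eef1a1 fell 2.81-fold in efficiency. Its polysome level was 6191, 6341, 5955 and 5934 CPM with the inhibitor, against 14473, 14487, 16448 and 14531 CPM at 16 h, and its cytosolic level rose 1.19-fold. The highest inhibitor library was thus far below the lowest 16 h library on polysomes. Pabpc1 fell 2.57-fold in efficiency, with 412 ± 11.7 CPM on polysomes with the inhibitor against 779 ± 30.7 CPM at 16 h, and its cytosolic RNA rose 1.41-fold. Eef1g fell 1.43-fold in efficiency. On polysomes 5 of the 10 rose, 4 fell and Npm1 did not pass (82.8% of all genes called), although with the GC trend removed Npm1 passed as a rise (log2 change 0.24, edgeR adjusted p = 4.79e-09). With the coding-length trend removed Npm1 passed as a fall (-0.57, adjusted p = 2.58e-07), and so did Eef1b2 (-0.18, adjusted p = 0.00067) and Tpt1 (-0.14, adjusted p = 0.00755). Eef1d then did not pass (0.06, adjusted p = 0.206, edgeR). The fall of Eef1g did not pass with library totals (adjusted p = 0.159).

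In cytosolic RNA 6 of the 10 were higher with the inhibitor than at 16 h, 1 was lower and 3 did not pass (74.7% of all genes called; the median over all genes was 0.10 in this comparison). The exception was Npm1, 1.39-fold lower, with 1803, 2048, 1741 and 2047 CPM with the inhibitor against 3182, 2593, 2470 and 2778 CPM at 16 h. The groups did not overlap. The other calls were rises of 1.19-fold (Eef1a1) to 1.41-fold (Pabpc1), and those of Eef1b2, Tpt1 and Naca were not kept with the coding-length trend removed (log2 changes of -0.0025, -0.07 and 0.02, adjusted p = 0.966, 0.287 and 0.713, edgeR). The rise of Eef1a1 did not pass in a fit of the compared conditions alone (adjusted p = 0.073, edgeR). With the coding-length trend removed Btf3, not called here, was lower (-0.21, adjusted p = 0.00347). With that trend left in, it passed as a rise without control replicate 1, 16 h replicate 1 or inhibitor replicate 3 (adjusted p = 0.0376, 0.04 and 0.0454, edgeR).

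The inhibitor group was also set against control. All 10 were higher in cytosolic RNA (73.3% of all genes called), from 1.10-fold for Eef1d and 1.16-fold for Naca to 2.35-fold for Tpt1 and 2.60-fold for Eef2. The call for Eef1d was lost without control replicate 1 or inhibitor replicate 1 or 2 (adjusted p = 0.0861, 0.0675 and 0.103, edgeR), and with RLE factors, DESeq2, library totals or a fit of the compared conditions alone (0.113, 0.118, 0.0698 and 0.113). With the coding-length trend removed Eef1d, Naca and Btf3 were not called (adjusted p = 0.812, 0.955 and 0.368, edgeR). In efficiency 9 of the 10 were lower than control, 0 were higher and Naca did not pass (median -0.97 against -0.12 over all genes, 43.4% of all genes called). Naca had log2 ratios of 0.47, 0.47, 0.57 and 0.45 with the inhibitor, against 0.46, 0.70, 0.78 and 0.52 in control samples, which overlap. Its change was -0.12 ± 0.0818 SE (adjusted p = 0.233, edgeR), but it was called as a fall with the GC trend removed (-0.11, adjusted p = 0.0169) and was above 0 when libraries were scaled by their totals (0.17, adjusted p = 0.0407). Btf3, Pabpc1, Npm1 and Eef1d were 1.27-fold to 1.54-fold below control. The falls of Btf3, Pabpc1 and Npm1 did not pass with library totals (adjusted p = 0.62, 0.0742 and 0.127, edgeR). Eef1a1 was 3.91-fold below it, Eef1b2 3.82-fold, Tpt1 3.47-fold, Eef1g 2.91-fold and Eef2 2.51-fold. On polysomes Pabpc1, Npm1 and Naca were higher, 5 were lower and 2 were not called (77.1% of all genes called). The rise of Npm1 (1.14-fold) was not called with the GC trend removed (adjusted p = 0.759, edgeR). Btf3, not called, was higher with the GC trend removed (0.12, adjusted p = 0.00259) and with library totals (0.21, adjusted p = 0.000177), and lower with the coding-length trend removed (-0.22, adjusted p = 0.000266). Eef2, not called, was higher with the GC trend removed (0.33, adjusted p = 0.00233). The rise of polysome Naca (1.08-fold) did not pass without control replicate 1, 2 or 4 or inhibitor replicate 2 or 4 (adjusted p = 0.0583 to 0.118, edgeR), and with the coding-length trend removed the change was -0.06 (adjusted p = 0.324). The 3 comparisons with control share their 4 control samples, and the 3 that include 16 h without inhibitor share its 4 samples, so their values stand side by side and are not independent.

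The share of each library that fell to the 10 mRNAs differed between conditions. Of polysome counts they made up 1.92% ± 0.0794 in control cells (SD, n = 4), 2.13% ± 0.0237 at 1 h, 1.40% ± 0.0152 with the inhibitor and 2.18% ± 0.0272 at 16 h. Of cytosolic counts they made up 1.84% ± 0.0588 in control cells, 2.34% ± 0.0170 at 1 h, 3.17% ± 0.0640 with the inhibitor and 2.71% ± 0.0450 at 16 h. Their share of polysome RNA was therefore lowest, and of cytosolic RNA highest, with the inhibitor, and the 4 values of that condition lay clear of all others in both. Eef1a1 weighs most in these sums: it alone was 0.578% ± 0.0171 of polysome counts with the inhibitor and 1.24% ± 0.0641 at 16 h.

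In 3 of the comparisons the change in efficiency ran with the coding length of the members. The coding sequences are 519 nt in Tpt1, 615 in Btf3, 648 in Naca, 678 in Eef1b2, 846 in Eef1d, 879 in Npm1, 1314 in Eef1g, 1389 in Eef1a1, 1911 in Pabpc1 and 2577 in Eef2. Over these 10 genes, which are not independent replicates and share their libraries, the log2 change in efficiency had a Pearson r with log2 coding length of 0.85 at 1 h against control, 0.88 at 16 h against control and -0.89 with the inhibitor against 16 h. For the inhibitor against control r was -0.10, and for 16 h against 1 h it was -0.34. The genes tested that had a coding length in GENCODE M21 showed a trend of the same kind. At 1 h the median change was -0.42 in 1715 genes with coding sequences of 600 to under 900 nt, 0.13 in 3957 genes of 1500 to under 3000 nt and 0.91 in 1722 genes of 3000 nt or more, although it was 0.42 in the 576 genes under 400 nt. For the inhibitor against 16 h these medians were 0.38, -0.36, -0.88 and -0.31. With the trend removed, the falls at 1 h were smaller and still called for Tpt1 (-1.65), Eef1b2 (-1.63), Btf3 (-1.31), Npm1 (-0.97), Naca (-0.90), Eef1g (-0.82) and Eef1d (-0.78). Eef1a1 was no longer called (-0.18 ± 0.0888 SE, edgeR adjusted p = 0.0769), and Pabpc1 was still higher (1.59). Against 16 h, the inhibitor group kept its falls in Eef1a1 (-1.51), Eef2 (-1.30), Pabpc1 (-1.09) and Eef1g (-0.59). Polysome RNA is defined here by more than 4 ribosomes, so a move of an mRNA among lighter fractions is not seen.

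**Figure D5:**
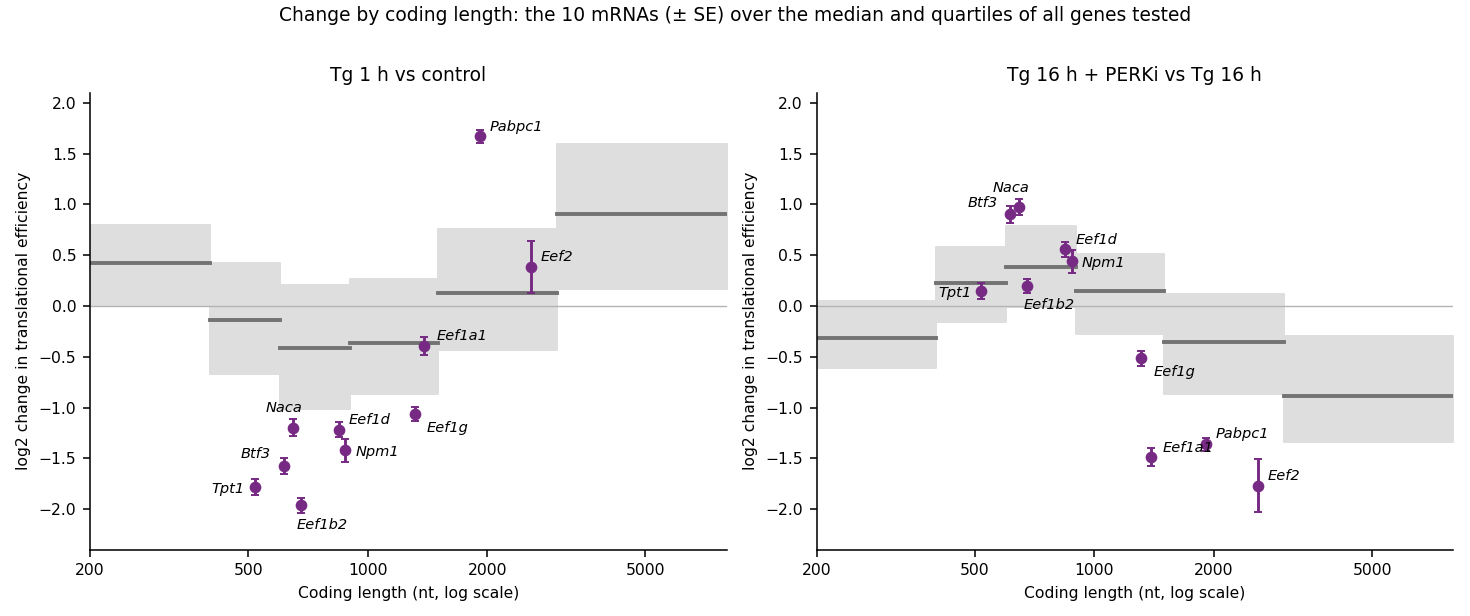
log2 change in translational efficiency against coding length (nt, log axis) for the 10 mRNAs (purple, ± SE) over the genes tested that had a coding length, whose median (line) and quartiles (grey) are given in 6 classes of length. At 1 h against control (left) 7 mRNAs under 1389 nt lie below the quartile band of their class and Pabpc1 lies above it; with the inhibitor against 16 h (right) the mRNAs of 1314 nt and more lie below 0.

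Other lists of the translation machinery were chosen with earlier results known, and their counts are given beside those of the 10 as a description. Ribosomal protein mRNAs, the largest TOP class, were lower in efficiency in 59 of 79 and higher in 3 at 1 h against control (median -1.18, 67.8% of all genes called). Rpl6 was 5.27-fold and Rps7 4.47-fold lower. With the inhibitor against 16 h, 20 of the 79 rose and 11 fell (median 0.07, 60.1% of all genes called), Rpl7a rising 1.89-fold and Rpl3 falling 1.59-fold. Against control, 74 of 79 were lower with the inhibitor (median -1.20, 43.4% of all genes called). Of 13 further TOP mRNAs tested, 10 fell and 3 rose at 1 h (median -0.83, 67.8% of all genes called). Among them Eif3f and Eif3h, of the initiation factor eIF3, and Slc25a5, the ADP/ATP carrier, fell 3.41-fold, 3.35-fold and 3.35-fold. In the inhibitor group, 1 of the 13 rose and 5 fell against 16 h (60.1% of all genes called). Eif4b, an initiation factor, fell 3.05-fold and Pabpc4, a relative of Pabpc1, fell 2.17-fold. A list of 15 abundant mRNAs not known as TOP mRNAs also fell at 1 h, 13 of 15 (median -1.01, 67.8% of all genes called). It included Tpi1, of glycolysis, by 2.98-fold, and Cfl1, which severs actin, by 2.58-fold. With the inhibitor against 16 h 9 of the 15 rose and 5 fell (median 0.41, 60.1% of all genes called), with rises of 2.51-fold in Cfl1 and 2.48-fold in Ppia, a prolyl isomerase.

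Elongation factors and modifying enzymes outside the 10 were called in both directions in efficiency at 1 h. Against control, where 67.8% of all genes were called, 5 of 13 tested rose and 6 fell, Eif5a2, a paralogue of the elongation factor eIF5A, rising 2.55-fold. Dph1, of diphthamide synthesis on eEF2, fell 1.72-fold, though its row in the table is shared with Ovca2. In cytosolic RNA 10 of the 13 rose and 1 fell at 16 h against control (77.3% of all genes called), and 9 rose at 16 h against 1 h, the 4 others not passing (75.3%). With the inhibitor against 16 h, 3 rose and 9 fell (74.7% of all genes called), among them Eef2k, the kinase that inactivates eEF2, by 1.64-fold, and Dph5, of the diphthamide pathway, by 2.16-fold. The termination and recycling factors had 2 of 3 tested higher in efficiency at 1 h, Gspt1 by 1.87-fold and Abce1 by 1.42-fold, and Etf1 1.57-fold lower. Of 5 mitochondrial elongation factor genes 1 rose and 2 fell at 1 h, Tsfm by 2.44-fold and Tufm by 1.96-fold. Partners and relatives of the poly(A)-binding protein divided evenly at 1 h, with 3 of 8 higher and 3 lower, and the deadenylase subunit Pan2 rose 2.67-fold. Of 14 factors that meet nascent chains, Naca and Btf3 included, 2 rose and 8 fell at 1 h, the Hsp70 relative Hspa14 by 1.85-fold. The shares of all genes given here count both directions. By direction, 4683 of 12366 genes rose and 4876 fell in cytosolic RNA at 16 h against control. With the inhibitor against 16 h, 5223 rose and 4016 fell. These lists had 3 to 14 members tested, so their counts rest on few genes, and nothing particular to the lists is read from them.

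Of 22 known regulators of TOP mRNAs, 6 rose and 3 fell in cytosolic RNA at 1 h against control, a smaller share than the 56.2% of all genes that were called. Ddit4 and Sesn2, which encode stress-induced inhibitors of mTORC1, rose 4.89-fold and 2.44-fold, and Tsc2, of the complex that restrains mTORC1, rose 1.42-fold. With the inhibitor against 16 h 4 rose and 12 fell, where 74.7% of all genes were called. Sesn2 was 9.22-fold lower and Larp1, which encodes the TOP-binding protein, 2.33-fold lower, while Eif4ebp2, which encodes a repressor of the cap-binding factor, was 2.67-fold higher. Their efficiency had 8 of 22 higher and 6 lower at 1 h (67.8% of all genes called), with Mtor 3.06-fold higher, and Larp4b and Larp4, of the La-related family, 2.66-fold and 2.70-fold higher. Whether mTORC1 activity or LARP1 binding moved with the 10 mRNAs was not measured.

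The mean profile of the 10 over the 16 samples was highest in control, and each member's likeness to it differed. The mean of the centred log2 ratios was 0.69 in control, -0.16 at 1 h, -0.36 with the inhibitor and -0.17 at 16 h. Single members, which are part of that mean, had a Pearson r with it of 0.98 (Eef1g), 0.97 (Tpt1 and Eef1b2), 0.76 (Eef1d), 0.70 (Eef1a1), 0.65 (Npm1), 0.57 (Btf3), 0.48 (Naca), 0.22 (Eef2) and -0.20 (Pabpc1). Of 4460 other genes with a mean of at least 50 CPM in cytosolic RNA, the 8 with the most similar profile over the 16 samples, by Pearson r, were Rpl4 and Rpl5 (r = 0.995 and 0.992), Eif3f (0.984), Prcp (0.978), Racgap1 (0.977), Rpl3 (0.977), Rpl34, in a row shared with its pseudogene (0.975), and Fam134c (0.969). The list holds 4 ribosomal protein genes and 1 subunit of eIF3, and the others, Prcp, Racgap1 and Fam134c, are in none of the lists above. The r rests on 4 conditions that share their libraries and is given with no test.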

How the data were processed

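Raw counts per gene symbol (20234 genes, 32 libraries) were deposited by the authors. Alignment with HISAT to mm10 and the use of DESeq2 1.9.23 are per the submitters' processing notes. How reads were counted (tool, strand, annotation) is not given in those notes or in the labels. Whole-number totals that differ between libraries show that the deposited counts were not scaled to a common total. Columns were tied to samples through the name in each sample's description.

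Genes were filtered with filterByExpr (minimum count 10, minimum total 15), scaled by TMM and tested with edgeR 4.0.16 (quasi-likelihood, robust) in R 4.3.3. Cytosolic (12366 genes) and polysome RNA (12065) were fitted over 16 libraries each, with 12 residual degrees of freedom. Translational efficiency (12561 genes) was the interaction of RNA kind and condition over 32 libraries with each sample as a block, since the design divides every sample into both kinds. A gene was called at a Benjamini-Hochberg adjusted p under 0.05 over all genes. There were 5 comparisons and 3 measures. Levels are CPM with TMM factors over all 32 libraries, so their ratios differ somewhat from fitted folds. Nothing in the labels tells whether the 4 replicates came from separate cultures, so the spread behind each p-value may be a technical one. No library repeated another (lowest chi-square per degree of freedom 2.31).

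The members and 12 other gene lists were chosen with earlier results of these data known. The rule for named genes takes the 10 members, of other lists at most 3 called genes with the smallest p, and the 8 genes with the most similar ratio profile. Of these lists, 1 gene (Gas5) had no row, and rows shared by several symbols were used for Rpl34, Rps27, Dph1, Eno1 and Hbb-bs. Transcript lengths, coding lengths and GC content came from GENCODE M21 for 19846 of the 20234 symbols. The fits were run on simulated counts with the same spread for every gene, few changed genes and no GC trend between libraries. That run does not bear on the GC trends seen here. Alternatives were RLE factors, library totals, no filter, DESeq2 1.42.0, fits of the compared conditions alone, a replicate block, coding-length offsets and each sample left out. GC-content offsets were added after Eef2 was seen to vary between replicates, and GENCODE coding lengths replaced a planned RefSeq protein table. Both kinds of offset take the trend of each library against the mean of all libraries in the fit. Differences between conditions or kinds of RNA that follow length or GC content are thus removed along with those between replicates.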

Additional observations from a re-analysis of the deposited data

Results flagged for a closer look

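In 10 of 120 groups of 4 values (levels in both kinds of RNA and log2 ratios of the 10 mRNAs in 4 conditions) the highest or lowest sample stood apart from the other 3 by Dixon's test at the 95% level, which chance gives in about 1 in 20 groups. Eef1a1 in cytosolic RNA was 12993 CPM in inhibitor replicate 2 (others 11422 to 11448), where Pabpc1 was also apart at 5032 CPM (others 4568 to 4643). In polysome RNA at 16 h, replicate 3 had 16448 CPM of Eef1a1 (others 14473 to 14531) and 1357 CPM of Eef1g (others 1278 to 1287), and replicate 2 had 852 CPM of Tpt1 (others 759 to 773). In cytosolic RNA at 16 h, replicate 1 had 2957 CPM of Tpt1 (others 2671 to 2710) and 459 CPM of Btf3 (others 423 to 424). Eef1g was 2449 CPM in control polysome replicate 3 (others 2224 to 2261). Pabpc1 was 885 CPM in 1 h polysome replicate 3 (others 942 to 953), and the log2 ratio of Eef1b2 was -0.72 in 1 h replicate 2 (others -0.55 to -0.52). The slope on transcript GC content was -0.27 log2 units per 10 percentage points in 16 h cytosolic replicate 1, -0.19 in 16 h polysome replicate 3 and -0.23 in control polysome replicate 3, and its part in these values was not tested.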

How the results depend on the processing

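Of 3700 log2 changes of the 10 mRNAs recomputed under an alternative, 3583 kept direction and side of the threshold, 54 newly passed, 43 no longer passed and 20 changed sign. Sign changes came from offsets or library totals. With coding-length offsets, the inhibitor against 16 h gave -0.0025 (Eef1b2), -0.0683 (Tpt1) and -0.2094 (Btf3) in cytosolic RNA, -0.1751 (Eef1b2) and -0.1436 (Tpt1) on polysomes and -0.196 (Eef1b2) in efficiency, and the inhibitor against control gave -0.0596 (Naca, polysome). With the replicate block as well, the same values were -0.0019, -0.0671, -0.2081, -0.1749, -0.1427 and -0.0579 (no such fit for efficiency). With GC-content offsets, polysome Eef1a1 was -0.0263 at 1 h and -0.0717 at 16 h against control, Npm1 -0.2338 at 16 h against control and 0.2427 with the inhibitor against 16 h, and Btf3 0.1237 with the inhibitor against control. With library totals, which shifted the median of all genes by up to 0.30 in efficiency (inhibitor against control, where 79.9% of called genes were then higher, against 37.6%) and by 0.24 on polysomes (62.9% higher), Btf3 was 0.2076 (polysome) and Naca 0.1729 (efficiency) with the inhibitor against control.

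The number of the 10 called in cytosolic RNA at 1 h against control, 5, became 9 with coding-length offsets, 8 with the replicate block added and 8 with GC-content offsets, and at 16 h against control 6 became 10 with GC-content offsets. In efficiency at 16 h against 1 h, 3 became 5 with library totals and with GC-content offsets. With each sample left out in turn, the number called at 1 h against control ran from 5 to 6 (cytosolic), 10 to 10 (polysome) and 9 to 9 (efficiency). At 16 h it ran from 6 to 7, 10 to 10 and 9 to 10 against control, and from 4 to 6, 6 to 6 and 3 to 4 against 1 h, in the same order. For the inhibitor it ran from 7 to 8, 9 to 9 and 8 to 10 against 16 h, and from 9 to 10, 7 to 8 and 9 to 9 against control.

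The replicate block changed 0 of 100 member calls in cytosolic and polysome RNA. Same-numbered samples of different conditions had correlated deviations of -0.83 to 0.93 (cytosolic) and -0.81 to 0.87 (polysome), medians -0.01 and -0.07. The numbers were not taken as pairs, since in none of the 5 comparisons were all 4 correlations above 0.1. The highest were those of 16 h with control (0.93, 0.78, 0.61 and 0.05 in cytosolic RNA, 0.08 to 0.87 on polysomes), all above 0. A fit of 16 h and control alone with samples paired by number was not run. The block over all conditions cannot stand in for it. The 1 h and inhibitor samples, which are not compared with each other, had 0.73, 0.78, 0.53 and 0.55 in cytosolic RNA, which 1 block over all conditions does not capture. The cytosolic and polysome libraries of a sample correlated at -0.76 to 0.59 (median 0.18), and with no replicate block 49 of 50 calls in efficiency were kept. The causes of these shifts were not tested, and the count tables bear on mRNAs with more than 4 ribosomes alone.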
